A study of Mus musculus with 6 samples.

Results

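Genes that mark macrophages, together with those for the 3 chains of complement C1q, were followed in mouse skin tumours labelled as having or lacking the nucleotide receptor gene P2ry6. The genes were chosen with earlier results of these data known. The members were taken by gene name: every non-control array probe annotated to Adgre1, Csf1r, Cd68, C1qa, C1qb, C1qc, Cd163, Mertk, Marco or Trem2. They came to 16 of the 56605 probes, all 10 genes had at least 1 probe, and 12 probes of 9 genes were bright enough to be tested. Tumours of P2ry6+/+ (wild-type, 3 samples) and P2ry6-/- (knockout, 3 samples) male mice were each hybridised to a one-colour array. Both genotypes had received 195 nmol of the mutagen 7,12-dimethylbenz[a]anthracene on shaved back skin and then 16 nmol of the promoter TPA 2 times a week until week 22. The strain, the ages, the part of P2ry6 that was deleted and whether each tumour came from a separate mouse are not given in the sources used here, so p-values measure only the spread between these samples.

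Macrophages are tissue phagocytes that depend on signalling through the CSF1 receptor for their survival and growth, and in tumours they form a large part of the leukocytes. C1q is the recognition protein of the classical complement pathway. It is assembled from A, B and C chains, circulates with the proteases C1r and C1s, and, unlike most complement proteins, is made mainly by macrophages and related cells. C1q also tags dying cells for uptake, a task in which the receptor kinase encoded by Mertk and the lipid-sensing receptor encoded by Trem2 take part as well.

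The array sequences that read the A and B chains are shown because the C1q probes gave the most alike profiles among the members. Each is 60 bases long. The probes for Adgre1 and Cd163 that follow are shown because they stayed below background while another probe of the same gene did not.
C1qa probe (chr4:136452409-136452468, mm9, minus strand): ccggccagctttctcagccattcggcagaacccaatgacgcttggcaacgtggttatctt
C1qb probe (chr4:136436578-136436637, mm9, minus strand): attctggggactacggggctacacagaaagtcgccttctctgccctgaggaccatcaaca
Adgre1 dim probe (chr17:57550221-57550280, mm9, plus strand): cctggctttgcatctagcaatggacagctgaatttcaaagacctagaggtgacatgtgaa
Cd163 dim probe (chr6:124270436-124270495, mm9, plus strand): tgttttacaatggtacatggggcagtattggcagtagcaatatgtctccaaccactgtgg

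The C1q genes lie side by side on chromosome 4, in the order C1qb, C1qc, C1qa, between Ephb2 and Epha8 (RefSeq, GRCm38.p6), and their brightest probes span 15.9 kb (mm9). The 250 bases before the start of C1qb and of C1qc are shown because these neighbours had like profiles over the tumours. Capitals mark GAGGAA, a core recognised by the macrophage transcription factor PU.1 (its gene is Spi1), or its reverse complement TTCCTC.
C1qb promoter (chr4:136886201-136886450, GRCm38.p6, minus strand): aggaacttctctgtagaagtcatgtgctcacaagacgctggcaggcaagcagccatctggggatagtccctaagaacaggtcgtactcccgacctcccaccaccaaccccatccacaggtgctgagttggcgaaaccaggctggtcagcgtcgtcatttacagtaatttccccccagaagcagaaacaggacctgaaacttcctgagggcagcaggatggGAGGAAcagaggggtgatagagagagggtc
C1qc promoter (chr4:136892915-136893164, GRCm38.p6, minus strand): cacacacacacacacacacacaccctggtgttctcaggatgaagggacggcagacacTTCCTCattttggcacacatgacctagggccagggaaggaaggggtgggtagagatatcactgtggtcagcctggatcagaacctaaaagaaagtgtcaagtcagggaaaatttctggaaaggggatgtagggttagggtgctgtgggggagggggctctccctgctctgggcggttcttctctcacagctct

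The match began 30 bases before the start of C1qb and 193 bases before that of C1qc. RefSeq promoters were at hand for 7 members, and 5 of them (C1qb, C1qc, Cd68, Marco and Trem2) held the core on either strand, while those of Cd163 and Mertk did not. The same core stood in 23.3% of 32851 promoter windows of this length, so a match is a description and not evidence of binding.

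Levels are log2 of the background-subtracted spot signal minus the 75th percentile of the same array, so 0 lies at that percentile. Levels of different probes cannot be set against each other. Between 54.2% and 59.4% of non-control spots were well above background on each array. In signal units the 75th percentile ran from 322 to 368 for labelled wild-type tumours and from 277.1 to 299.6 for those labelled knockout. All 6 arrays shared 1 slide and 1 scan; by the second number of their slide position, labelled wild-type replicates lay at 1, 1 and 2 and labelled knockout replicates at 2, 3 and 3, which nearly follows genotype. All 7 keratinocyte markers checked, Krt5 and Krt14 among them, were well above background on every array. Below, values are given in the order of replicates 1, 2 and 3, labelled wild-type before labelled knockout. For P2ry6, the targeted gene, the brighter probe gave 0.38, 0.33 and -0.21 against 0.57, 0.70 and 0.45, which differ by 0.41 (SE 0.20, adjusted p = 0.450 by limma). With its other probe the difference was 0.54 (adjusted p = 0.411 over all probes). Neither probe was lower under the knockout label, so the arrays do not bear out that label for the RNA these probes read, and every direction below rests on the labels.

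The C1q chains did not differ between the genotypes beyond the spread between tumours, and the 3 chains had nearly the same profile from tumour to tumour. C1qa, the A chain, read 0.49, 0.33 and -0.26 against 0.32, 0.07 and -0.10. C1qb, the B chain, read 0.40, 0.39 and -0.23 against 0.37, 0.12 and -0.04. For C1qc, the C chain, the levels were 2.20, 2.08 and 1.54 against 2.19, 1.94 and 1.76. For each chain labelled wild-type replicate 3 was the lowest of all 6 tumours, and the labelled knockout values lay inside the labelled wild-type range. The differences, labelled knockout minus labelled wild-type, were -0.09 for C1qa (SE 0.24, limma adjusted p = 0.906), -0.04 for C1qb (SE 0.23, adjusted p = 0.959) and 0.02 for C1qc (SE 0.23, adjusted p = 0.978). In bulk tumours fewer cells of a type and less RNA per cell cannot be told apart.

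A difference that misses the threshold does not show equal levels, and the intervals give what these arrays could still hold. For C1qc the labelled knockout level was 1.02 times the labelled wild-type level, with a 95% interval from 0.698 to 1.48. The interval ran from 0.633 to 1.40 for C1qa and from 0.667 to 1.42 for C1qb. A 2-fold change in either direction lies outside all of these intervals.

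How closely the chains ran together was measured after each gene was centred on its own mean over the 6 arrays. The root mean square difference was 0.05 log2 units between C1qb and C1qc and between C1qa and C1qb, and 0.06 between C1qa and C1qc. The mean profile of the chains had an SD of 0.27 over the same arrays. Of the 36 pairs of tested members, these were the closest 3; the next was Cd68 with C1qc, at 0.18. Different probes of 1 gene agreed less well: the bright probes of Cd68 differed by 0.16 and those of Csf1r by 0.19. All genes share the arrays and their scaling, and no test was made of these distances.

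**Figure D1:**
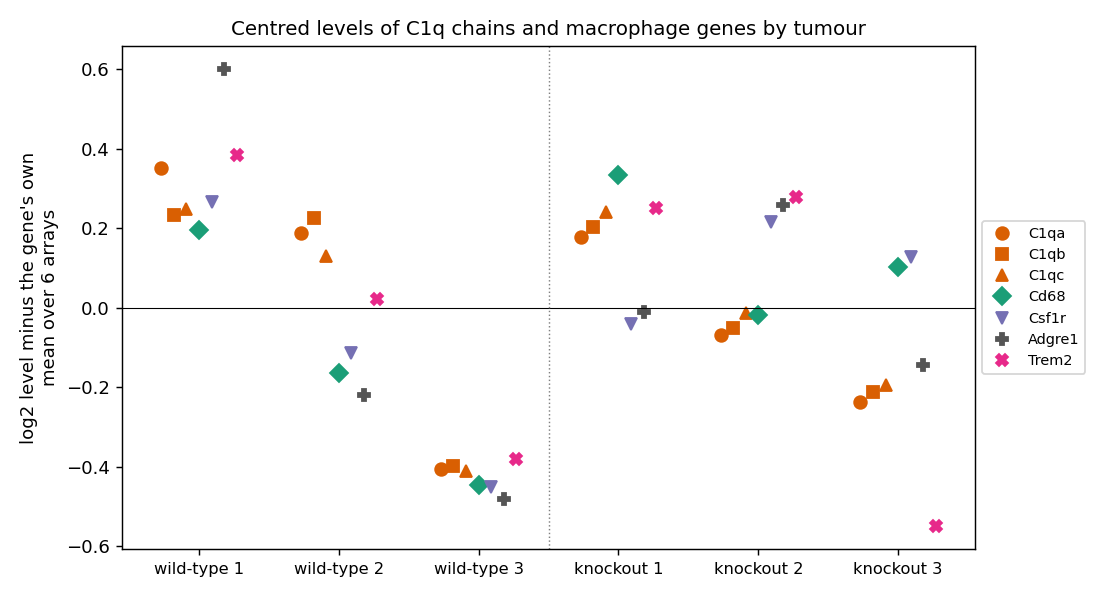
Level of 7 tested members in each tumour (vertical axis, log2 units relative to the gene's own mean over 6 arrays; horizontal axis, tumours by label and replicate; 1 point per gene and tumour). The 3 orange C1q symbols nearly coincide in every tumour, and all 7 genes lie below their mean in labelled wild-type replicate 3.

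The genes whose profile over the 6 arrays was most like the C1q mean came from 12791 features above background on every array with an SD of at least 0.5 times that of the profile. They were Lmna, which encodes nuclear lamins A and C (root mean square difference 0.06), Eepd1 (0.07), Lcmt1 (0.07), Clps (0.08) and 9130221H12Rik (0.08). The chains lay 0.05 to 0.06 from each other, so distances of about this size were not confined to C1q. For Adgre1 the nearest of 10526 features were A030001D20Rik (0.07), Icam5 (0.12), Ror2 (0.12), Ypel4 (0.13) and Sh3rf2 (0.14).

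Receptors and antigens that define the lineage did not separate the genotypes either. Csf1r, the receptor for CSF1 and interleukin 34, read 2.97, 2.59 and 2.26 against 2.67, 2.92 and 2.84. All labelled knockout values fell between labelled wild-type replicates 1 and 3. The difference was 0.20 (SE 0.21, limma adjusted p = 0.737), or 1.15 times the labelled wild-type level with a 95% interval from 0.806 to 1.64, and a second probe of Csf1r gave 0.27 (adjusted p = 0.627 over all probes).

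Adgre1 encodes the adhesion receptor whose antibody is widely used to stain mouse macrophages. Its bright probe (chr17:57622843-57622902, mm9) read 0.32, -0.50 and -0.77 against -0.29, -0.02 and -0.43. The groups overlapped, with labelled wild-type tumours both above and below all those labelled knockout. The difference was 0.07 (SE 0.30, limma adjusted p = 0.944; 95% interval of the ratio 0.639 to 1.72).

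Cd68 encodes a lysosomal glycoprotein of phagocytes. Its brightest probe (chr11:69477775-69477834, mm9) read 2.75, 2.39 and 2.11 in the labelled wild-type and 2.89, 2.54 and 2.66 in the labelled knockout tumours. Labelled wild-type replicate 1 lay among the labelled knockout values and the other two below them. The difference was 0.28 (SE 0.21, limma adjusted p = 0.623), and the other tested probes gave 0.38 and 0.14. None of the 3 passed the threshold. The dimmest of these probes, with 0.14, was well above background in 2 of 3 labelled wild-type tumours.

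Among members with a role in clearing dying cells, Mertk, the receptor kinase that binds bridging proteins on apoptotic cells, read -2.52, -2.87 and -3.50 against -3.26, -2.97 and -4.30 (chr2:128627867-128627926, mm9). The lowest of these, labelled knockout replicate 3, was not well above background. The difference was -0.55 (SE 0.41, limma adjusted p = 0.618; ratio 0.685, 95% interval 0.349 to 1.34). Trem2, a receptor for lipids and lipoproteins that signals through the adaptor DAP12, read 0.15, -0.21 and -0.61 against 0.02, 0.05 and -0.78 (chr17:48491537-48491596, mm9). Its groups overlapped over nearly their whole range, and the difference was -0.02 (SE 0.30, adjusted p = 0.988).

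Cd163, the scavenger receptor for haemoglobin bound to haptoglobin, varied most among the members. Its bright probe (chr6:124280484-124280543, mm9) read -1.63, -1.32 and -3.49 in the labelled wild-type and -1.86, -2.78 and -0.21 in the labelled knockout tumours. Its range over the 6 tumours was 3.29 log2 units, wider than that of 97.3% of all tested features, against a median of 0.76. The highest and the lowest level both came from a replicate 3, of opposite genotypes. The difference was 0.53 (SE 0.80, limma adjusted p = 0.817), and the 95% interval of the ratio ran from 0.387 to 5.40, an interval that holds both a 2-fold lower and a 2-fold higher level. The ranges of the C1q genes, by contrast, were 0.63 to 0.76 log2 units.

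Marco, a scavenger receptor of some resident macrophages, was not well above background on any array and was not tested. Its values ran from -5.29 to -4.44 in the labelled wild-type and from -5.95 to -4.58 in the labelled knockout tumours. A further probe each of Adgre1, C1qc and Cd163 was also below background on all 6 arrays, at -6.80 to -5.88. These dim probes have no readable level. At each of the 3, all labelled knockout values lay above all labelled wild-type values, while those of Marco overlapped. The share of all dim probes with such an order is not given here, so the order is no result about these genes. The 75th percentile, the quantity subtracted, was lower on the labelled knockout arrays. Its part in this order was not tested.

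**Figure D2:**
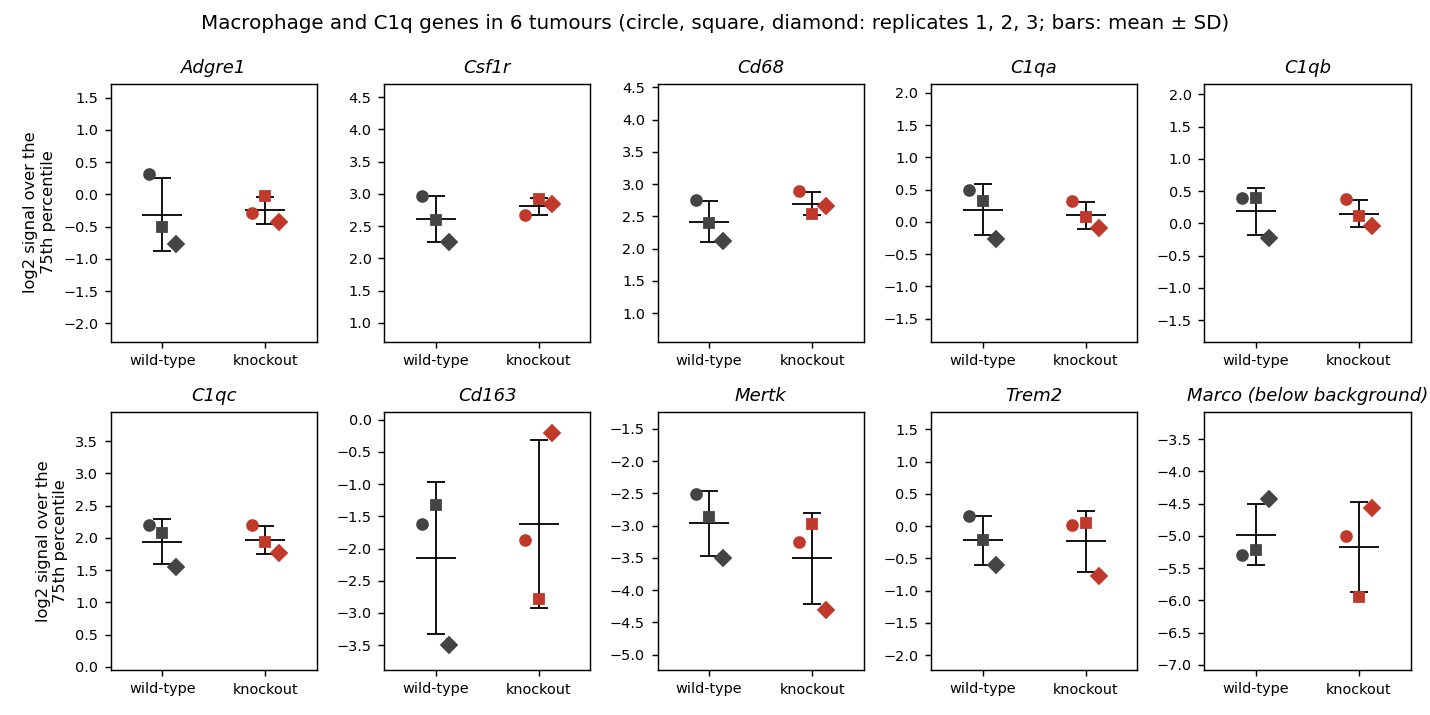
Level of each of the 10 genes at its brightest tested probe, or at its only probe for Marco (vertical axes, log2 signal relative to the array's 75th percentile, each spanning the same number of log2 units; bars, mean ± SD of 3 tumours; circle, square and diamond, replicates 1, 2 and 3). The genotypes overlap in every panel, Cd163 has the widest scatter, and Marco lies below background.

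In all, 0 of 9 tested members passed limma's adjusted threshold, against 0.162% of all 19749 tested features, and 0 of 9 had an unadjusted p under 0.05, against 13.2%. By the looser rule of an unadjusted p under 0.05 with at least a 2-fold difference, 0 of 9 were called, against 4.43%. The genotypes did not overlap in 0 of 9 members, against 19.5% of all features. By sign, 5 members lay above and 4 below the labelled wild-type mean. Their median difference was 0.02, and that of all features was 0.02. Exact two-sided permutation tests over the 6 samples gave p = 0.3 or more for every tested member, where 0.1 is the smallest p that 3 against 3 samples allow.

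**Figure D3:**
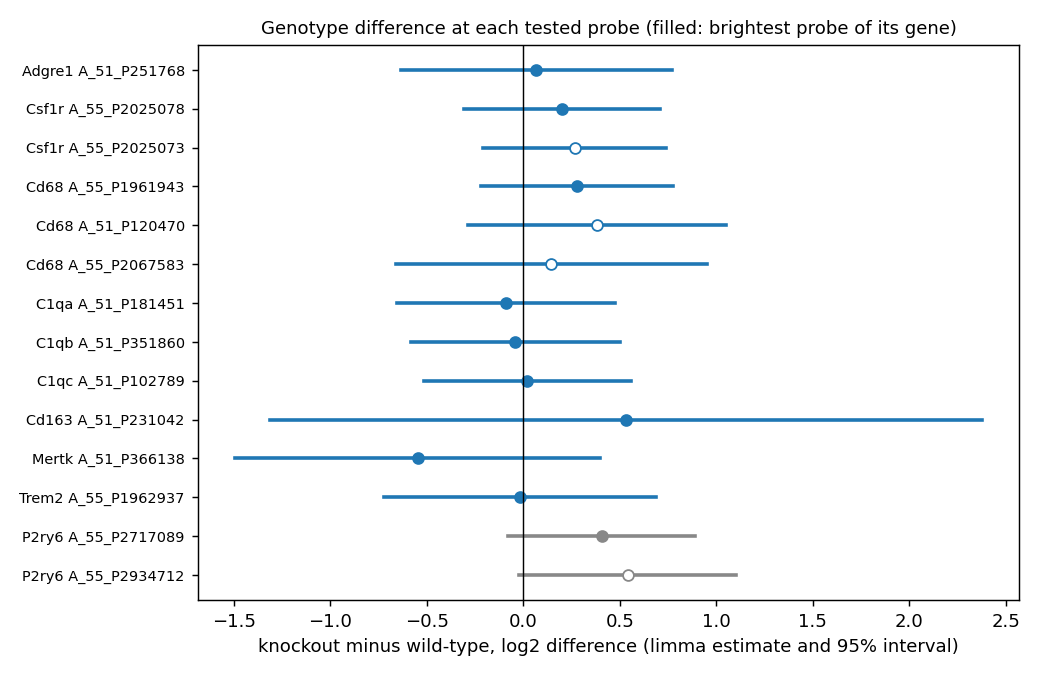
Difference between genotypes at each tested probe of the members, with both P2ry6 probes in grey (horizontal axis, labelled knockout minus labelled wild-type in log2 units; point, limma estimate; line, 95% interval; filled points, the brightest probe of the gene). Every interval crosses 0, and that of Cd163 is the widest.

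Labelled wild-type replicate 3 had the lowest level of its genotype for all 9 tested members and the lowest of all 6 tumours for 7 of them. Labelled wild-type replicate 1 was the highest of its genotype for 8 of 9. The mean level over the 9 was 0.57, 0.32 and -0.33 against 0.34, 0.21 and 0.16. The pan-leukocyte markers (7 of 7 measured, mean level) were also lowest in labelled wild-type replicate 3, at 0.17 against 0.54 to 1.15 in the other tumours. So were the fibroblast markers, at 1.58 against 2.42 to 3.77, and the keratinocyte markers, at 7.63 against 7.71 to 8.12. The monocyte, neutrophil and dendritic cell lists were lowest there too. The T and NK cell list was lowest in labelled wild-type replicate 1 (-1.50), and the B cell list was highest in labelled wild-type replicate 3 (-2.42). Mast cell, endothelial, adipocyte and skeletal muscle lists were lowest in labelled knockout tumours. The part of these marker levels in the members' values was not tested.

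With small differences, the sign for several members turned on single tumours. Without labelled wild-type replicate 3 the differences were -0.31 for C1qa, -0.25 for C1qb, -0.18 for C1qc, -0.16 for Adgre1, -0.14 for Cd163, -0.21 for Trem2 and -0.82 for Mertk, while Csf1r and Cd68 gave 0.03 and 0.12. Without labelled wild-type replicate 1 those of C1qa and C1qb were both 0.07, and those of C1qc and Trem2 were 0.15 and 0.17. Without labelled wild-type replicate 2, C1qb gave 0.06 and Adgre1 gave -0.02. Leaving out labelled knockout replicate 1 gave -0.09 for C1qc, and leaving out replicate 2 gave -0.04 for Adgre1. Without labelled knockout replicate 3 the values were 0.01 for C1qa, 0.06 for C1qb, -0.17 for Cd163 and 0.26 for Trem2. Csf1r and Cd68 stayed higher, and Mertk stayed lower, under each alternative that measured them. Nevertheless 0 of 161 member values under 18 alternatives passed the threshold, and the smallest adjusted p among them was 0.327, for Mertk with array weights.

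Of 11 tested genes for CSF1 receptor ligands and macrophage transcription factors, 6 were higher and 5 lower. Their median was 0.21, where that of all features was 0.02. Of these genes 0 passed limma's adjusted threshold, and 3 of 11 had an unadjusted p under 0.05, against 13.2% of all features. Csf1, the receptor's main ligand, read 0.64, 0.86 and -0.11 against 0.99, 1.49 and 1.37, a difference of 0.82 (SE 0.29, adjusted p = 0.317). Its genotypes did not overlap, as in 19.5% of all features. Both other probes of Csf1 gave 0.75. The transcription factor gene Maf differed by 0.44 (adjusted p = 0.369), also without overlap, although other probes of Maf gave 0.21 and 0.19. The value for Il34, the other ligand and a keratinocyte product, was -0.18 (adjusted p = 0.801). Spi1, which encodes PU.1, stayed below background in all 6 tumours.

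Of 22 further macrophage genes, 19 were tested, 12 higher and 7 lower, with a median difference of 0.18. Of the 19, 0 passed limma's adjusted threshold and 3 had an unadjusted p under 0.05, against 13.2% of all features. The 3 genes were Lgals3, which encodes galectin 3 and is also made by keratinocytes (0.56, adjusted p = 0.368), the lysosomal gene Laptm5 (0.54, adjusted p = 0.377) and Apoe, a lipid carrier (-0.997, adjusted p = 0.378). Dimmer probes gave -1.26 for Apoe (adjusted p = 0.337 over all probes) and 0.48 for Lgals3 (adjusted p = 0.537). The scavenger receptor gene Msr1, the complement receptor gene Vsig4 and Siglec1 stayed below background in all 6 tumours.

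Of 19 tested components and regulators 9 were higher and 10 lower, with a median of -0.03. limma's adjusted threshold was passed by 1 of 19, Cfd, the alternative pathway protease adipsin of fat cells, for which the labelled knockout level was not well above background, at least 53.3-fold lower (adjusted p = 0.0092). That call ended with the replicate number as a block (adjusted p = 0.092) and without labelled knockout replicate 1 (adjusted p = 0.059). Cfd is itself on the adipocyte marker list. Of that list's 7 tested genes 5 were lower and 2, Cfd among them, passed, against 0.162% of all features. Only 4 of the 7 were well above background on all 6 arrays, and the rest were tested through 1 genotype alone. The mean level of that list, Cfd included, was 0.97 to 1.45 in the labelled wild-type and -1.70 to -1.24 in the labelled knockout tumours. These list values are therefore not separate from the result for Cfd. The part of these markers in the result for Cfd was not tested. In the complement list 6 of 19 had an unadjusted p under 0.05, against 13.2% of all features. Of the 19, 5 also differed at least 2-fold, against 4.43%, and in 7 of 19 the genotypes did not overlap, against 19.5%. These counts include Cfd and Masp2, each not well above background in 1 genotype.

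C1r and C1s are the proteases that sit on C1q, and C4 is a substrate of C1s. C1ra read 0.78, 1.20 and 0.18 against 0.70, 1.04 and 0.34 (difference -0.03, SE 0.31, limma adjusted p = 0.978). C1s1 read 3.05, 2.96 and 3.12 against 2.58, 2.67 and 2.60, so that labelled wild-type replicate 3, the lowest for C1q, was the highest here (difference -0.43, SE 0.14, adjusted p = 0.293). C4b, chosen after its values were seen, read 2.38, 2.64 and 1.04 against -0.67, 0.95 and -1.38 (difference -2.39, SE 0.67, adjusted p = 0.253), with -1.80 at a second probe. Of the lectin pathway genes, the mannan-binding lectin protease gene Masp2 was at least 2.71-fold higher under the knockout label. It was well above background in 0 of 3 labelled wild-type tumours. The ficolin gene Fcna was higher by 1.24 on the log2 scale. Neither passed (adjusted p = 0.080 for Masp2 and adjusted p = 0.164 for Fcna). Masp2 was tested only through the genotype where it was high, so its p-values rest on unreadable labelled wild-type values. They lend its difference no support, also where it passed. That was with array weights (adjusted p = 0.041), without labelled wild-type replicate 1 (adjusted p = 0.045) and without replicate 2 (adjusted p = 0.035).

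Complement receptors and C1q binding partners showed 0 of 11 past limma's threshold, with a median of 0.10. An unadjusted p under 0.05 was found for 0 of 11, against 13.2% of all features. The nearest were Cd93 with -0.56 (adjusted p = 0.383), the complement receptor 3 gene Itgam with 0.48 (adjusted p = 0.553) and Itgax with 0.33 (adjusted p = 0.585). The family of C1q and tumour necrosis factor related proteins, which share the globular domain of C1q, had 0 of 11 past the threshold, with a median of -0.14. This family had 1 of 11 with an unadjusted p under 0.05, against the same 13.2%. Its smallest p-values were those of Mmrn1, an endothelial and platelet protein (-0.92, adjusted p = 0.366), C1qtnf12 (-0.55, adjusted p = 0.453) and Mmrn2 (-0.33, adjusted p = 0.473).

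Of 12 genes of the TREM family and DAP12 signalling 8 were higher, with a median of 0.23, and 0 passed limma's adjusted threshold. An unadjusted p under 0.05 was found for 3 of 12, against 13.2% of all features. Tyrobp, which encodes DAP12, differed by 0.28 (adjusted p = 0.744), and without labelled wild-type replicate 3 by -0.07. Hcst, the related adaptor DAP10, gave 0.74 (adjusted p = 0.333), the inositol phosphatase gene Inpp5d 0.66 (adjusted p = 0.333) and the kinase gene Syk 0.89 (adjusted p = 0.369).

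Around Mertk, 12 of 15 tested genes of the TAM receptors, their ligands and efferocytosis were higher, with a median of 0.16. By limma's adjusted p 0 passed, and 3 of 15 had an unadjusted p under 0.05, against 13.2% of all features. Tyro3, a receptor of the same family as Mertk, read 4.46, 4.44 and 3.90 against 4.88, 4.92 and 5.08 (difference 0.69, SE 0.20, adjusted p = 0.263). Axl, the remaining receptor of the family, and the ligand gene Gas6 differed by 0.13 and 0.16 (adjusted p = 0.920 and 0.813). A dimmer probe of Axl gave -0.71 (adjusted p = 0.450 over all probes). At its brightest probe the sign for Axl turned without labelled wild-type replicate 3 (-0.34) and without labelled knockout replicate 2 (-0.02). That for Gas6 turned without labelled knockout replicate 2 (-0.06). Adgrb1, which encodes a phosphatidylserine receptor, read 1.17, 0.85 and 1.02 against -0.96, -2.31 and -1.58 (difference -2.63, SE 0.34, adjusted p = 0.071). It passed with array weights (adjusted p = 0.031), while other probes of Adgrb1 gave -2.27 and 0.79. Dock1, a guanine nucleotide exchange factor for engulfment, gave 0.39 (adjusted p = 0.372), and 0.35 and -0.04 at dimmer probes.

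Of 8 tested scavenger receptor genes 5 were higher and 3 lower, with a median of 0.07. Of these, 0 passed limma's adjusted threshold and 2 of 8 had an unadjusted p under 0.05, against 13.2% of all features. Cd36, a fatty acid receptor that fat and muscle also express, was not well above background under the knockout label, where it was at least 5.05-fold lower (adjusted p = 0.297). In the same tumours 8 of 8 skeletal muscle markers were lower, with a median difference of -6.73. All 8 were without overlap between the genotypes, against 19.5% of all features. The adjusted threshold was passed by 2 of 8, against 0.162%. Only 2 of the 8 were readable in all 6 tumours, and they differed by -5.79 and -4.15 without passing. The rest were tested through the labelled wild-type tumours alone, a choice that favours lower labelled knockout values. Neither gene that passed had a readable labelled knockout level. The median, the overlap and the passing count therefore rest partly on unreadable values. The mean level of the 8 muscle markers, unreadable values included, was -0.26, 4.05 and 1.21 against -4.62, -4.82 and -4.42. Labelled wild-type replicate 2 was highest for them and for Cd36. The part of the muscle and fat markers in the result for Cd36 was not tested. The lipoprotein receptor gene Scarb1 differed by -0.86 (adjusted p = 0.348) and Stab1 by 0.67 (adjusted p = 0.452). Among relatives of Adgre1, Adgre5 was measured (-0.15, adjusted p = 0.840; 0.10 without labelled wild-type replicate 2) and Adgre4 was below background.

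**Figure D4:**
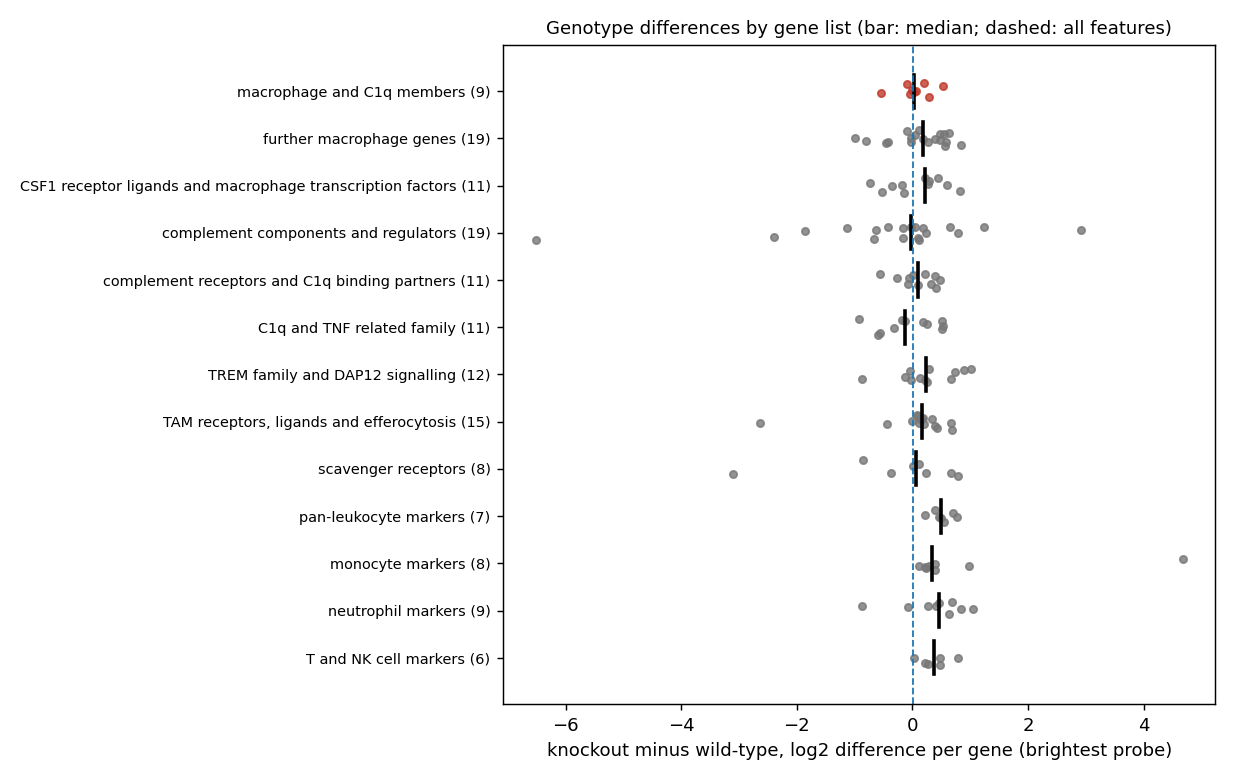
Genotype difference of each tested gene by list (horizontal axis, labelled knockout minus labelled wild-type in log2 units; 1 point per gene, bars mark list medians, the dashed line the median of all features, and brackets give the genes tested). The 9 members, in red, centre on the dashed line, while the complement list reaches from -6.52 (Cfd) to 2.92 (Masp2), fitted values of genes below background in 1 genotype.

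Marker lists of other cell types had median differences on both sides of 0. Of 7 pan-leukocyte markers 7 were higher, with a median difference of 0.49; the median was 0.34 for 8 monocyte markers, 0.46 for 9 neutrophil markers and 0.37 for 6 T and NK cell markers. None of the genes in these 4 lists passed limma's adjusted threshold. An unadjusted p under 0.05 was found for 1, 1, 3 and 1 of them, against 13.2% of all features. The median was 0.33 for dendritic and Langerhans cell markers, 0.30 for keratinocyte and 0.43 for fibroblast markers, but -0.31 for 3 B cell, -0.13 for 7 mast cell and -0.17 for 6 endothelial markers. The mean level of the monocyte list was 1.07 to 1.84 in the labelled wild-type and 2.15 to 2.64 in the labelled knockout tumours. Chil3, a chitinase-like protein of myeloid cells and a member of that list, chosen after its values were seen, read 0.71, 1.87 and -0.74 against 5.25, 4.10 and 6.53 (difference 4.68, SE 0.81, limma adjusted p = 0.140). That gene made most of the gap: over the other 7 monocyte markers the means were 1.33 to 1.84 against 1.87 to 2.08, and the mean difference was 0.37 in place of 0.91. Whether the lists differ from the members was not tested.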

How the data were processed

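The submitters' processing notes name Agilent Feature Extraction 10.7.1.1 for reading the one-colour intensities. The processed signal deposited by the authors is a background-subtracted, detrended intensity, per the file headers; flags (other columns) mark spots well above background. A deposited value table of the series, on a log2 scale by comparison with the spot signals and with column medians of 4.969, served as an alternative; the sources used here do not name the tool behind it. Per the labels' protocols, 0.2 ug of RNA was labelled.

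Spots with outlier flags were left out, spots of a probe averaged, and each array scaled to its 75th percentile over probes. A probe was tested when all arrays of 1 or both genotypes had it well above background (29718 of 56605); a gene is its brightest probe. Names came from RefSeq, GRCm38.p6. Genotypes were compared over all 19749 features with limma 3.58.1 (R 4.3.3), two-sided, Benjamini-Hochberg adjusted, threshold 0.05. In simulated data of 19749 features, 73 of 100 features changed by 2 and 98 of 100 changed by 4 log2 units were recovered, with 5 false calls. Changes as small as the members' estimated differences were not simulated, so no recovery rate is known for them. The number of arrays limits precision. The genes named are the members, P2ry6, up to 3 genes of each list with the smallest p, and the nearest profiles; C1ra, C1s1, C4b, Il34, Tyrobp, Axl, Gas6 and Chil3 fall outside that rule and were chosen after their values were seen. Some genes that the rule or the lists cover are not reported here. Members and lists were chosen with earlier results of these data known. Alternatives covered background, scaling, filters, probes, moderation, weights, blocks and each sample left out.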

Additional observations from a re-analysis of the deposited data

How the results depend on the processing

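The count of members called stayed 0 by both rules under all 18 alternatives, and the median difference over the measured members stayed between -0.18 and 0.17 when single tumours were left out. The count over all features was less stable. By adjusted p it was 32, and normexp gave 10 (5 higher and 5 lower, where the chosen setting gave 10 and 22). Dropping the filter on dim probes gave 18, requiring signal above background in all 6 tumours gave 5, and array weights gave 89. A block for the first number of the slide position gave 21. The second number, which nearly follows genotype, was not used as a block. Leaving out single tumours gave 13 to 125: 125 and 62 without labelled wild-type replicates 2 and 3, and 16, 16 and 13 without labelled knockout replicates 1, 2 and 3. By the looser rule, normexp gave 390, no filter 1317 and the filter on all 6 tumours 558, where the chosen setting gave 874. With no filter the median of all features was 0.19. Same-numbered tumours deviated together with r = 0.06, 0.26 and 0.14 across features, and differently numbered ones with r from -0.20 to 0.10. Whether the numbers pair the samples cannot be told from these values, and the chosen setting left the samples unpaired. With the replicate number as a block 5 features passed, 0 of them members.

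Signs turned for small differences; the cause was not tested. C1qc gave -0.016 under normexp, -0.020 under median centring, -0.13 under array weights and -0.064 under the block for the first slide position number. Trem2 gave 0.0084 under normexp, while Adgre1 gave -0.21 and Adgre5 0.0059 under array weights. Axl gave -0.29 when its probes were averaged, -0.029 under array weights and -0.044 under the same block. With single tumours left out, C1qa ran from -0.31 to 0.066, C1qb from -0.25 to 0.066, C1qc from -0.18 to 0.15, Adgre1 from -0.16 to 0.39, Cd163 from -0.17 to 1.11 and Trem2 from -0.21 to 0.26. Among partners, C1ra ran from -0.30 to 0.21, Tyrobp from -0.072 to 0.52, Axl from -0.34 to 0.37, Gas6 from -0.065 to 0.34 and Adgre5 from -0.34 to 0.10.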
